A study of Mus musculus with 15 samples.

Results

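The 3 control libraries described here hold the RNA of E16.5 mouse gonocytes, the male germ cells of the foetal testis, and were taken as those whose sample titles name them E16.5 RNA-seq controls. They are 3 of the 15 samples of the series and 3 of its 6 gonocyte RNA-seq libraries. The study asked what TEX15 does in piRNA-directed silencing of transposable elements, and these libraries served as its heterozygous controls at E16.5. No knockout library enters any value here. Every control carried 1 null allele of Tex15 (Tex15+/-), made in a single CRISPR/Cas9 line by editing of exon 5, and 1 tdTomato reporter allele of Miwi2 (Miwi2 tdTom/+, the gene Piwil4). The mice were of mixed B6CBAF1/Crl and C57BL/6N strain, and the cells were sorted by flow cytometry for tdTomato, so that Piwil4 promoter activity selected them. The labels do not say whether the libraries come from separate embryos or litters, whether embryos were pooled, or how many cells were sorted, so the spread between libraries may be partly technical.

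Gonocytes descend from primordial germ cells, which erase most of their DNA methylation on the way to the gonad. In the foetal testis they stop dividing, and during this arrest they rebuild the methylome with the DNMT3 enzymes, guided at young transposable elements by the nuclear Argonaute MIWI2 and its piRNAs. Meiosis and sperm formation follow only after birth.

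Between 4893265 and 5561189 read pairs per library were assigned to a gene, 34.8% to 35.7% of all pairs in each table. A further 20.4% to 24.4% lay in no annotated feature. Of 54838 genes in the tables, 30770 to 32592 had at least 1 read in a library. The counts did not tell the strands apart: of 494 genes whose exons are wholly covered by exons of the other strand, 1 had a read (0.202%), against 68.3% of 45644 genes with no such cover. Reads of a gene with an antisense partner are therefore partly missing from these tables. Multiply aligned reads were not counted either, so genes with near-identical copies are uncertain too. Ambiguous reads, which fit more than 1 gene, numbered 400527 to 473011 per library and were not counted. Genes that share exons on the same strand are therefore also partly missing. Levels are given as coding TPM, the reads of a gene per base of its exons, scaled so that the nuclear protein-coding genes of a library sum to 1000000. On this scale 1 read on a gene with 1000 bases of exon is worth 1.13 to 1.25.

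The 6 genes that mark these cells, Mael, Ddx4, Tex15, Tdrd9, Dazl and Piwil4, were all abundant in every library. Mael (ENSMUSG00000040629, chr1:166201201-166238747, minus strand), which acts in transposon silencing, had a coding TPM of 2276, 2408 and 2407 in libraries 1, 2 and 3. Ddx4 (ENSMUSG00000021758, chr13:112598333-112652475, minus strand), the germ cell RNA helicase also called VASA, had 1516, 1417 and 1546. These are the 27th and the 60th most abundant nuclear protein-coding genes. Tex15 itself (ENSMUSG00000009628, chr8:33516738-33585582, plus strand) had a coding TPM of 966, 1084 and 1068 with 1 intact allele, from 8183, 8315 and 9082 reads, which do not separate the alleles. Tdrd9 (ENSMUSG00000054003, chr12:111971559-112068854, plus strand), an RNA helicase with a Tudor domain, had 959, 866 and 784, so that its highest library stood just under the lowest of Tex15. Dazl (ENSMUSG00000010592, chr17:50279395-50293636, minus strand), an RNA-binding protein that germ cells need, had a coding TPM of 471, 452 and 412, and Piwil4 (ENSMUSG00000036912, chr9:14696230-14740733, minus strand), the gene of MIWI2, had 224, 209 and 205. Of Piwil4, 1 allele carried the tdTomato reporter, and its reads do not separate the alleles either. In coding TPM the order was Mael, Ddx4, Tex15, Tdrd9, Dazl, Piwil4 in each library, and no neighbours overlapped over the 3 libraries. With the longest annotated transcript as gene length in place of all exons, the mean TPM over all genes of Piwil4 went from 13.2 to 21.1, and the order of the 6 means stayed. Gene coordinates are those of GENCODE vM21 on GRCm38.

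The promoters of such genes are shown first, since later results turn on their content of CpG. The lines give the stretch before the RefSeq start site, 5′ to 3′ on the strand of the gene in GRCm38.p6, with annotated exons left out and each CpG in capitals. Mael lies at chr1:166238748-166238994 (minus), Dazl at chr17:50293637-50293870 (minus) and Tdrd9 at chr12:111971309-111971558 (plus). Prm2, the gene of a protamine that packs sperm DNA, is shown for contrast (chr16:10792106-10792355, minus). It had 15, 3 and 5 reads. The 4 genes were chosen after their values were seen.
Mael: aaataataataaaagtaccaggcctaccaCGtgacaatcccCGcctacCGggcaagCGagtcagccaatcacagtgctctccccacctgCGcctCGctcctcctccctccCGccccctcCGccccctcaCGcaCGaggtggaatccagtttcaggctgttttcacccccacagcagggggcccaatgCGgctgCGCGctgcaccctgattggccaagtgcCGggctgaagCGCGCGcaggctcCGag
Dazl: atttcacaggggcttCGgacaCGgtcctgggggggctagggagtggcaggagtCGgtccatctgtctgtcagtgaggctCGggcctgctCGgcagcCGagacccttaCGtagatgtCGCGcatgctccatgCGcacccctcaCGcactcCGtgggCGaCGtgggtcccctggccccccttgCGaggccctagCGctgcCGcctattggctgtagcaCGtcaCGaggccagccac
Tdrd9: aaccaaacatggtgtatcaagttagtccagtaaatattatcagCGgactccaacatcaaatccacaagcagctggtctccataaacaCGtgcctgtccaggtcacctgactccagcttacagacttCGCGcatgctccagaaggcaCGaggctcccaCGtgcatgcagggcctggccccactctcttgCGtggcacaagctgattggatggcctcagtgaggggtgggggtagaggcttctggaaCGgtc
Prm2: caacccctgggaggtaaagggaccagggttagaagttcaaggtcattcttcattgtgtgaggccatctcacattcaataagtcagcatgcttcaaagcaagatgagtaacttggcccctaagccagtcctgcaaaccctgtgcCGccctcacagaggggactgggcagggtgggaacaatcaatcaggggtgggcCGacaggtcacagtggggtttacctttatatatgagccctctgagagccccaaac
The Mael stretch holds 18 CpG, Dazl 19, Tdrd9 8 and Prm2 2.

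Protein-coding genes took 71.6%, 72.2% and 70.8% of gene reads in libraries 1, 2 and 3 (71.5% ± 0.747, SD, n = 3), although the libraries were made from total RNA depleted of ribosomal RNA. The class annotated as miRNA took 14.0%, 12.1% and 12.6%, and almost all of it came from 1 entry, Gm23935, with 754981, 588696 and 693332 reads. Gm23935 (ENSMUSG00000076258) is 57 bases long, lies at chr16:11144125-11144181 on the plus strand inside an intron of Zc3h7a, which runs the other way, and is 73.7% G and C. Its sequence is printed because this short entry sets the scale of TPM over all genes.
Gm23935: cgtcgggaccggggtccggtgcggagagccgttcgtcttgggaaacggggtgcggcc
It has 3 exact matches in GRCm38.p6, the others being at the entries Gm24245 on chromosome 4 and Gm24270 on chromosome 9. Because TPM divides by length, Gm23935 took 88.0%, 85.6% and 85.7% of TPM over all genes, against 13.9%, 12.03% and 12.5% of reads. Its class is that of the annotation. Whether its reads are a microRNA or ribosomal RNA left after depletion was not tested.

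Mitochondrially encoded genes took 9.98%, 11.6% and 12.9% of gene reads (11.5% ± 1.47), lowest in library 1. Most of this was ribosomal RNA of the mitochondrion: mt-Rnr2 had 347938, 364305 and 463195 reads. Among entries annotated as lincRNA, Gm26917 on chromosome 17 led with 108562, 51421 and 51306 reads, about equal in libraries 2 and 3 and higher in library 1. It lies next to CT010467.1, an entry annotated as ribosomal RNA with 12816, 10846 and 13132 reads. Whether the reads of Gm26917 are themselves ribosomal RNA was not tested. Rn7sk, the RNA that holds the elongation factor P-TEFb inactive, had 45655, 47967 and 56970 reads, and Malat1, a nuclear-retained RNA of splicing speckles, had 9101, 10587 and 12389. LincRNAs together took 2.59%, 1.74% and 1.60% of reads, snoRNAs 0.175%, 0.237% and 0.272%, and snRNAs 0.112%, 0.146% and 0.182%. The snoRNAs and snRNAs stood lowest in library 1 and highest in library 3. The order of the lincRNAs came from Gm26917, without which they took 0.594%, 0.691% and 0.674%, lowest in library 1 (left out after the values were seen).

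**Figure D1:**
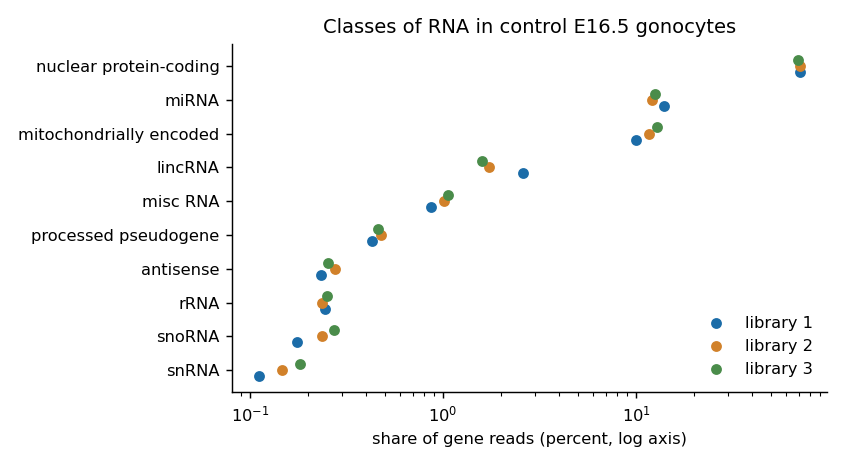
Share of gene reads (percent, log axis) taken by 10 classes of RNA in the 3 control libraries, each library a point of its own colour. Nuclear protein-coding genes lead in every library, the miRNA class and mitochondrially encoded genes follow in an order that turns in library 3, and lincRNA is highest in library 1 at 2.59%.

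The 20 protein-coding genes with the highest mean coding TPM were those of translation, protein folding and respiration. Those of respiration were the 7 encoded by the mitochondrion, led by mt-Co1, a subunit of cytochrome oxidase, at 16911, 19209 and 21070. None of 98 nuclear genes of oxidative phosphorylation was among the 100 most abundant nuclear protein-coding genes. Rplp1, a protein of the ribosomal stalk, led the nuclear genes with a coding TPM of 14551, 16537 and 15781. Eef1a1, the elongation factor that brings tRNA to the ribosome, followed at 9574, 10235 and 10344, and the 2 genes for cytosolic HSP90 came next. Hsp90ab1 had a coding TPM of 7302, 6608 and 7356, and Hsp90aa1, its stress-inducible partner in most cells, had 6848, 6627 and 6677. The chaperone Hspa8 had 4053, 3965 and 4107. Of the 100 most abundant nuclear protein-coding genes, 43 had symbols that begin with Rpl or Rps, those of ribosomal proteins. The subunits of the cytosolic chaperonin among these 100 were Cct5, at a coding TPM of 1765, 1769 and 1876, Tcp1, Cct8 and Cct2. They belong to no list and were picked after their values were seen.

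Germ cell genes stood among this machinery. Besides Mael and Ddx4, the 100 most abundant included Nxf2, an X-linked gene related to mRNA export factors, at a coding TPM of 1759, 1733 and 1761. Uchl1, a ubiquitin hydrolase found in neurons and spermatogonia, had 1474, 1337 and 1345. Dppa4, a chromatin protein of pluripotent cells, had 1321, 1311 and 1390, Stk31, a Tudor-domain kinase of germ cells, had 1133, 1272 and 1339, and Kdm1b, a histone H3K4 demethylase needed for methylation of imprinted genes in oocytes, had 1162, 1082 and 879. The 100 nuclear protein-coding genes with most reads held 15.6% ± 0.0563 (SD, n = 3) of the reads of all such genes, and the 1000 with most reads held 49.5% ± 0.218.

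A gene was counted as on when its TPM over all genes was at least 1 in every library. Since Gm23935 takes most of that scale, the threshold equals a coding TPM of 17.1, 15.1 and 16.1 in libraries 1, 2 and 3, which is a strict one. Of 21998 protein-coding genes 7743 (35.2%) were on, and this share is the background for every list below. At a coding TPM of at least 10 the share was 43.0% and at 1 or more 70.1%, while 2192 of 21985 nuclear protein-coding genes (9.97%) had no read in any library. The median nuclear protein-coding gene had a mean coding TPM of 8.57. The lists were chosen with earlier results of these data known, so their counts describe the cells and no test was made.

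All 24 genes of the piRNA pathway list were on, with a median of their mean coding TPM of 327 against 8.57 over all nuclear protein-coding genes. Among the Argonautes, Piwil2, the cytoplasmic partner called MILI that starts piRNA amplification, had a coding TPM of 858, 820.5 and 857, above Piwil4 in each library. Of the Tudor-domain proteins that build the piRNA granules, Tdrd1 had 589, 552 and 573, Rnf17 had 358, 373 and 357, Tdrd7 had 269, 267 and 261, and Tdrd5 had 234, 231 and 245. Tdrkh, which tethers piRNA trimming to mitochondria, had 117, 117 and 129, although 36.7% of its exon bases are covered by exons of the other strand. Fkbp6, a cochaperone of HSP90 in piRNA loading, had 1002, 951 and 843, close to Tex15. Mov10l1, the helicase that hands precursors to processing, had 818, 795 and 768.

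Factors of nuclear silencing were present beside Piwil4. Spocd1, a nuclear protein of MIWI2-directed methylation, had a coding TPM of 756, 694 and 572. Morc1, an ATPase that represses transposable elements in male germ cells, had 454, 499 and 499. The enzymes at the end of the list were lower but still on. Pnldc1, the exonuclease that trims piRNA 3′ ends, had a coding TPM of 98.2, 96.7 and 94.0, and Henmt1, which methylates those ends, had 71.8, 52.1 and 64.7. Pld6, the mitochondrial nuclease called Zucchini, had 55.6, 40.7 and 60.5, and Exd1, a partner of piRNA amplification, had 45.1, 44.9 and 41.7. The list spans a range from Exd1 to Mael of 43.9 to 2364 in mean coding TPM. Each member stood above the on threshold in each library. The genes at the low end are the ones lost at a threshold 5 times as high, where 21 stay on, against 10.2% of all protein-coding genes.

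**Figure D2:**
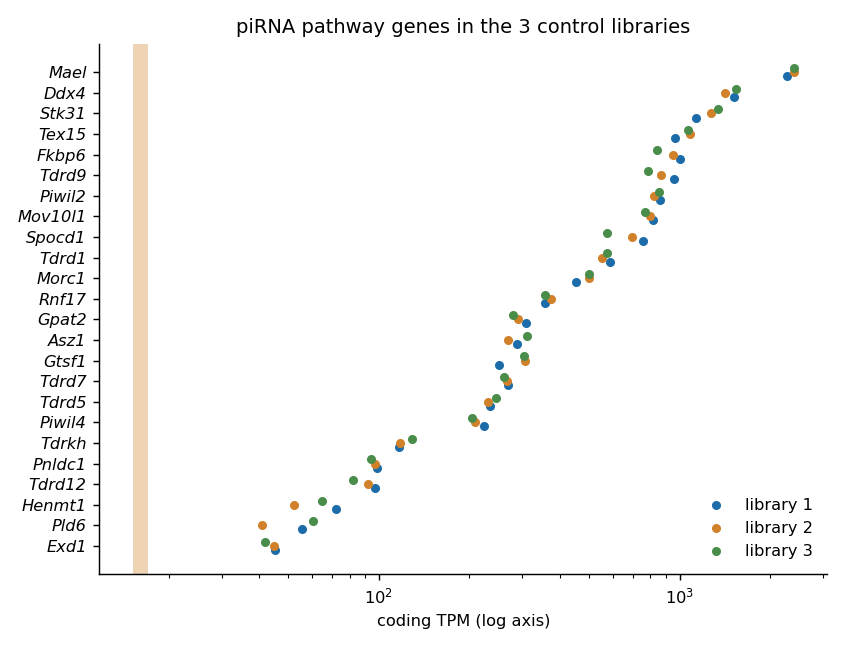
Coding TPM (log axis) of the 24 piRNA pathway genes in the 3 control libraries, ordered by their mean, each library a point of its own colour. The orange band marks the coding TPM that equals the on threshold in the 3 libraries (15.1 to 17.1), and every point lies to its right.

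Of 21 genes of germ cell identity 19 were on (90.5%), some of them shared with the piRNA list. Tex19.1, a germ cell protein that limits transposable elements, had a coding TPM of 620, 590 and 579. Sall4, a zinc-finger factor of germ and stem cells, had 283, 273 and 276, and Dnd1, an RNA-binding protein that protects male germ cells, had 281, 275 and 248. Taf4b, a germ cell subunit of TFIID, had 205, 207 and 219. The 2 members that were not on were Zbtb16, the spermatogonial factor PLZF, at 6.67, 9.03 and 7.49, and Nanos2. Nanos2, an RNA-binding protein that promotes the male fate of foetal germ cells, had only 6, 3 and 8 reads, or a coding TPM of 4.36, 2.41 and 5.79. Of its exon bases 49.0% are covered by exons of the other strand, where reads are not counted. Nanos3, its relative from primordial germ cells, had 28.3, 20.4 and 23.3.

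Of 12 listed genes for enzymes that write DNA methylation and for proteins that assist, guide or protect it, 11 were on (91.7%). Dnmt3l, the cofactor without catalytic activity that male germ cells need, led with a coding TPM of 576, 496 and 540. Dnmt3a, the main de novo enzyme, had 226, 216 and 216, and Dnmt3c, the rodent enzyme that methylates young transposable elements, had 92.5, 80.7 and 77.3. Dnmt3b stood lower at 30.9, 17.7 and 27.2. Dnmt1, the maintenance enzyme, had 257, 225 and 217, whereas its recruiting partner Uhrf1 had 33.6, 25.6 and 29.2 and the related Uhrf2 had 32.5, 39.6 and 34.4. Nsd1, which places H3K36me2, had 204, 205 and 214. Zfp57, a zinc-finger protein that protects imprints, was the member not on, with 3.001, 4.97 and 4.48. Of 6 genes for removal of methylation 2 were on: Tet3, an oxidase of methylcytosine, at 35.9, 29.8 and 23.0, and Tet2 at 20.3, 24.9 and 23.9. Tet1 had 7.35, 9.74 and 9.73.

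Chromatin repressors were on for 24 of 25 listed genes (96.0%). Ehmt2, which places H3K9me2, had a coding TPM of 798, 667 and 626, and Mphosph8, a subunit of the HUSH silencing complex, had 662, 661 and 618. Kdm1a, the relative of Kdm1b, had 628, 551 and 564. Trim28, the corepressor of KRAB zinc-finger proteins, had 419, 336 and 388, and Setdb1, the H3K9me3 enzyme it recruits, had 125, 102 and 112. Suv39h1 was the member not on, at 16.8, 15.7 and 15.9, right at the threshold.

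Pluripotency and primordial germ cell genes were split, with 13 of 28 on (46.4%). A few of them were far above the rest. Dppa4 had the coding TPM given above, Utf1, a chromatin factor of stem cells, had 624, 673 and 613, Dppa3, which shields methylation in the early embryo, had 382, 304 and 426, and Pou5f1, the gene of OCT4, had 258, 274 and 299. Its usual partners were not on at this threshold. Nanog had 28, 14 and 16 reads, a coding TPM of 14.2, 7.84 and 8.07. Sox2 had 41, 7 and 12 reads, a coding TPM of 22.6, 4.27 and 6.60, so that library 1 stood above the threshold and the others below it. Fgf4, the lowest member, had 3 reads in library 1 and none in the others. Prdm1, a repressor that specifies primordial germ cells, was on at 20.8, 30.1 and 25.7, and its partner Prdm14 was not, at 3.99, 4.89 and 0.441. The number on depends on the threshold: it is 4 at a TPM of at least 5, where 10.2% of all protein-coding genes are on, and 22 where Gm23935 is left out of the scale and 63.4% of all are on. Pou5f1, Utf1, Dppa3 and Dppa4 are on in both, and Nanog and Sox2 in the latter.

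Genes of spermatogonial stem cells and progenitors were also split, with 13 of 27 on (48.1%). Sohlh1, a factor of spermatogonial differentiation, had a coding TPM of 375, 311 and 282, highest in library 1. Dmrt1, a factor of the male gonad and its germ cells, had 107, 74.0 and 92.4, and Kit, the receptor of stem cell factor, had 47.9, 56.9 and 42.1. Foxo1, a regulator of stem cell upkeep, had 42.7, 44.6 and 49.1. Genes for the GDNF pathway of the stem cell were lower: the receptor gene Ret had 16.6, 15.8 and 10.5, and its co-receptor gene Gfra1 had 2.49, 4.81 and 4.13. Neurog3, a progenitor factor, had no read in any library, which allows a coding TPM of up to 2.04, 2.25 and 2.03, counting 3 reads as the most that a count of 0 allows.

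Meiotic genes were on for 31 of 39 (79.5%), with a median of 48.9, although male germ cells of this age do not enter meiosis. At a TPM of at least 5 the number is 14, without Spo11, Dmc1 and Stra8, and 10.2% of all protein-coding genes are on. Mael, counted here as well as among the piRNA genes, led the list. Of the others, Stag3, a meiotic cohesin subunit, had a coding TPM of 585, 602 and 581, and Hormad1, which marks unsynapsed axes, had 455, 513 and 421. Sycp1, the transverse filament of the synaptonemal complex, had 346, 377 and 404, Sycp2 had 198, 196 and 171, and Sycp3 had 103, 155 and 134 with 52.2% of its exon bases covered by the other strand. Zcwpw1, a reader of histone marks at recombination sites, had 359, 335 and 378. Lower in the list, Dmc1, the meiotic strand-exchange protein, had 43.4, 40.7 and 39.9, and Spo11, which makes the breaks, had 35.3, 40.3 and 31.7. Stra8, the inducer of meiotic entry, had 27.7, 43.8 and 18.2 from 44, 63 and 29 reads, and its partner Gm4969, now called Meiosin, had 30.5, 33.9 and 29.9. The 8 genes not on were Ccdc36, Spata22 and Meiob, Prdm9, which chooses recombination sites, at 11.9, 12.5 and 6.56, and at the low end Mei4, Terb1, Terb2 and Msh5, with mean coding TPM of 4.12, 5.02, 6.54 and 6.80.

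Spermatid and sperm genes were on for 4 of 34 (11.8%), below the 35.2% of all protein-coding genes, with a median of 3.65. The number depends on the threshold: it is 14 at a CPM of at least 1, where 64.1% of all protein-coding genes are on, and 18, with Prm1 and Prm2 among them, where Gm23935 is left out of the scale and 63.4% of all are on. Those on were Piwil1, the gene of the adult Argonaute MIWI, at a coding TPM of 114, 122 and 93.2, Ldhc, a lactate dehydrogenase of sperm, at 79.8, 76.2 and 68.0, Tnp1, a transition protein of sperm chromatin, at 59.8, 68.9 and 44.0, and Akap4, of the sperm tail, at 17.3, 19.9 and 23.2. With the longest annotated transcript as gene length Akap4 is not on and Spaca1, another listed gene, is, so that the number stays 4. Tnp1 rests on only 23, 24 and 17 reads on a short gene. Prm1, Prm2 and Tnp2 had between 0 and 15 reads in any library, and Prm3, Catsper1 and Smcp had none. Oocyte genes were on for 2 of 20. Here too the number depends on the threshold. At a coding TPM of at least 10 in every library it is 6, where 43.0% of all nuclear protein-coding genes pass. At 1 or more it is 16, where 70.1% pass. Figla, an oocyte transcription factor, had 28.5, 27.0 and 28.4 from about 20 reads a library, and Padi6 had 17.5, 25.3 and 17.4. The zona pellucida gene Zp2 had 24.2, 13.4 and 22.8, and Gdf9, a growth factor of the oocyte, had 3, 2 and 12 reads.

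**Figure D3:**
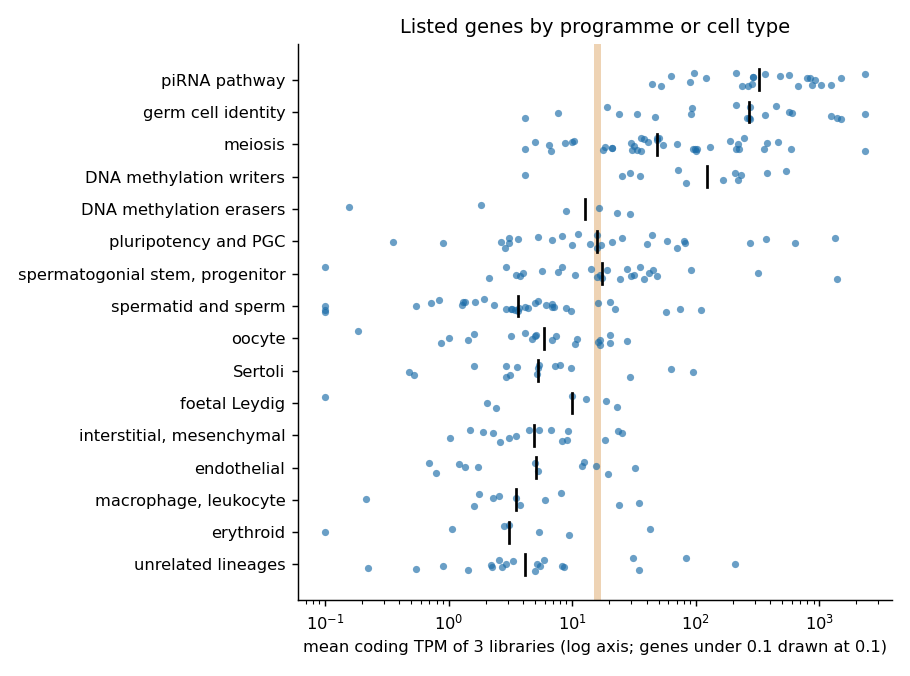
Mean coding TPM of 3 libraries (log axis) for each gene of 16 lists, 1 point a gene, with the list's median as a black bar and the on threshold as an orange band at 15.1 to 17.1. The piRNA genes all lie right of the band, pluripotency genes lie on both sides of it, and most spermatid, oocyte and somatic genes lie to its left.

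The cell cycle lists did not read as fully off. Of 36 genes that drive division 28 were on (77.8%). Cenpf, a kinetochore protein of G2 and mitosis, had a coding TPM of 411, 440 and 474, and the replication helicase genes Mcm3 and Mcm7 had 304, 278 and 317 and 255, 227 and 276. The checkpoint kinase gene Bub1 had 244, 271 and 259, and Top2a, which untangles DNA, had 158, 182 and 204. Mki67, the usual marker of cycling cells, had 24.1, 19.8 and 23.2, and Cdk1, the mitotic kinase, had 10.8, 14.8 and 16.7. Ccnd1 and Aurkb, a cyclin of G1 and a mitotic kinase, were among the lowest at 3.62, 2.40 and 4.32 and 5.40, 5.96 and 7.68. Of 10 inhibitors 5 were on, led by Cdkn2a at 213, 207 and 158. Cdkn1b, the gene of p27, had 29.5, 27.8 and 20.9, Cdkn1c, the gene of p57, had 39.0, 37.5 and 15.5, and Cdkn1a, the gene of p21, had 4, 10 and 2 reads. Library 3 stood lowest for Cdkn2a, Cdkn1b and Cdkn1c.

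Among 34 receptors, ligands and retinoid genes 13 were on (38.2%), close to the background. Aldh1a2, which makes retinoic acid, had a coding TPM of 193, 152 and 112, lowest in library 3. Crabp1, which binds retinoic acid in the cytoplasm, had 110, 135 and 135, and the receptors Rxra and Rara had 69.3, 53.3 and 64.6 and 41.6, 35.4 and 39.9. Cyp26b1, which degrades retinoic acid in the foetal testis, had 10, 9 and 11 reads. Nodal and its co-receptor gene Tdgf1, active in younger male germ cells, had 6, 6 and 17 reads and 9, 1 and 15 reads, with library 3 highest for both.

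Of 26 imprinted genes 11 were on (42.3%). Grb10, an adaptor that restrains growth, had a coding TPM of 227, 210 and 164, Igf2r, the receptor that clears IGF2, had 125, 116 and 119, and Peg10, a gene derived from a retrotransposon, had 123, 113 and 98.2. The neighbours H19, a noncoding RNA expressed from the maternal copy in the body, and Igf2, its paternally expressed growth factor, stood far apart in these cells. H19 had 159, 116 and 154 reads, or 73.4, 59.2 and 70.8 on the coding TPM scale, and Igf2 had 8, 7 and 9 reads, or 1.59, 1.53 and 1.78. Snrpn, a paternally expressed gene, had 4, 8 and 5 reads. These counts do not separate the parental copies.

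X-linked genes of the germ line were on for 12 of 22 (54.5%), against 244 of 948 protein-coding genes on the X chromosome (25.7%) and 7479 of 20777 on autosomes (36.0%). Nxf2 led them, followed by Taf7l, a TFIID subunit of germ cells, at a coding TPM of 269.7, 262 and 256, Rhox10, a homeobox gene of spermatogonia, at 289, 229 and 269.8, and Usp26, a ubiquitin protease, at 159, 173 and 153. The median of the mean coding TPM over all protein-coding genes was 4.62 on the X chromosome and 9.11 on autosomes. Over the genes that were on, which are picked by their level, it was 48.97 and 51.4. Of 183 protein-coding genes on the Y chromosome 7 were on. Eif2s3y, a translation factor that spermatogonia need to divide, had 77.0, 91.7 and 89.97, while Sry, the testis-determining gene, had 1 read in library 1 and none in the others. Xist, the RNA of X inactivation, had 54, 59 and 53 reads, or a value of 3.42, 4.13 and 3.34 on the same scale.

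Somatic cells of the testis left few reads. The 82 markers of 8 somatic types together took 0.0501%, 0.0575% and 0.0485% of gene reads (0.0520% ± 0.00484), and 12 of them were on (14.6%, below the background). Their summed coding TPM was 798, 899 and 763. At a coding TPM of at least 10 in every library 20 of the 82 passed, against 43.0% of all nuclear protein-coding genes. At 1 or more 60 of the 82 passed, against 70.1%, so the low share on holds only for the higher thresholds. Among Sertoli cell genes, the defining markers Sox9, Amh, Wt1 and Fshr had 16 to 21, 1 to 5, 0 to 5 and 0 to 3 reads. Krt18, a keratin of simple epithelia, and the secreted chaperone Clu were the highest of that list, with a coding TPM of 114, 107 and 63.0 and 62.1, 59.5 and 66.8. Of 11 macrophage and leukocyte genes 2 were on, Fcer1g and Cd68, with 33, 19 and 26 reads and 19, 24 and 34 reads, while the general leukocyte gene Ptprc had 4, 3 and 3. Of 7 erythroid genes 1 was on, Alas2, of haem synthesis, with 80, 103 and 77 reads, while the globins Hba-a2 and Hbb-bt had 5 or 6 and 1 or 2. The globin counts also carry the limit given above for genes with near-identical copies. For low values of this kind, fewer cells of a type, less RNA per cell and uncounted multiply aligned reads cannot be told apart.

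Of 7 foetal Leydig cell genes 4 stood highest in library 2. Cyp17a1, an enzyme of androgen synthesis, had 13, 81 and 35 reads, Hsd3b1 had 3, 43 and 13, and Cyp11a1, which cleaves cholesterol, had 16, 67 and 36. Star, which brings cholesterol into the mitochondrion, had 65, 108 and 65. The 7 genes of the list summed to a coding TPM of 35.02, 121 and 50.8. Of all protein-coding genes with a mean of at least 10 reads, 34.5% were highest in library 2. The receptor genes Mc2r and Lhcgr did not follow, with 6, 4 and 0 reads and 13, 12 and 15 reads. Insl3, the hormone of foetal Leydig cells, had no read, which allows a coding TPM of up to 5.47, 6.04 and 5.45. Whether Leydig cells or their RNA entered library 2 was not tested.

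Promoter sequence went along with whether a gene was on. For 16510 nuclear protein-coding genes a RefSeq promoter of 300 bases was matched by symbol, and its CpG ratio is the number of CpG observed over the number that its C and G content gives. With a ratio of up to 0.25, 244 of 4356 genes were on (5.60%). The share was 17.6% of 2819 genes with a ratio between 0.25 and 0.5, 45.0% of 3543 between 0.5 and 0.75, and 66.6% of 5792 above 0.75. The median of the mean coding TPM went from 1.13 in the lowest class to 33.3 in the highest. The median ratio was 0.598 over all these genes and 0.818 over those that were on. Spermatid genes had a median ratio of 0.169 over 28 matched promoters, of which Prm2, shown above, has 0.137. Meiotic genes had 0.685 over 30, and piRNA genes 0.756 over 18, including Mael (0.780) and Tdrd9 (0.430). Germ cell identity genes, mostly on, had a median of 0.523 over 14, below that of all genes, and Tdrd7, with 0.234, was on as well.

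The letters CACGTG, which read the same on both strands, were in 12.05% of promoters of genes that were on, 5.76% of the others and 8.12% of all. They were in 7 of 18 piRNA promoters (38.9%), those of Mael, Ddx4, Tdrd9, Stk31, Fkbp6, Mov10l1 and Tdrd1, and in 8 of 30 meiotic ones (26.7%), among them Hormad1, Stag3 and Sycp1. Both the Mael and the Tdrd9 stretches printed above hold them. Within promoters with a CpG ratio above 0.75 the shares were closer, 13.1% for genes that were on and 9.97% for the others. Mael counts among both the piRNA and the meiotic promoters. In other lists CACGTG was in 25% of immediate early and heat shock promoters and 18.2% of Hox promoters. Spermatid genes and genes that drive division had it in 7.14%. A share near the meiotic one was thus not particular to germ cell genes. The letters TCCCGC, or GCGGGA on the other strand, were in 56.7% of meiotic promoters and 26.5% of all, and neither motif contains the other. The share was not particular to meiotic genes. It was 64.3% for the listed genes that drive division, 56.25% for immediate early and heat shock genes and 53.3% for receptors and ligands. For piRNA genes it was 27.8% and for spermatid genes 10.7%. Above a CpG ratio of 0.75 these letters were in 46.0% of promoters of genes that were on and 47.2% of the others. These are matches of letters, not sites.

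The 3 libraries had similar levels, with differences beyond counting error. Over 14446 genes the common biological coefficient of variation was 0.114, the part of the spread between libraries that is left after counting error. Correlations of log2 coding TPM between libraries, across 21985 genes of unequal level that are not independent replicates, were 0.958, 0.963 and 0.960. The chi-square per degree of freedom is about 1 for counting error alone. It was 4.68 for libraries 1 and 2, 5.58 for 1 and 3, and 3.04 for 2 and 3. It covers genes of any class with at least 10 reads in the pair. For 6555 nuclear protein-coding genes with a mean of at least 100 reads, the coefficient of variation of normalised counts had a median of 0.0869, against 0.0610 from counting error alone. In 1714 of these genes the spread was below counting error. The lowest values belonged to Brdt, a bromodomain protein of male germ cells, with 2973, 2733 and 3007 reads, and Cfap300, a gene of cilia assembly, with 530, 485 and 535. Their coefficients of variation, 0.00144 and 0.00143, lie below the 0.0186 and 0.0440 that counting error alone gives, so they do not show these genes to be steadier than others. Among the 166 genes with a coefficient above 0.25, 70 were highest in library 1, 52 in library 2 and 44 in library 3. Of the same genes 41, 64 and 61 were lowest in libraries 1, 2 and 3. Of all nuclear protein-coding genes with a mean of at least 10 reads, 34.1%, 34.5% and 31.4% had their highest coding TPM in libraries 1, 2 and 3.

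**Figure D4:**
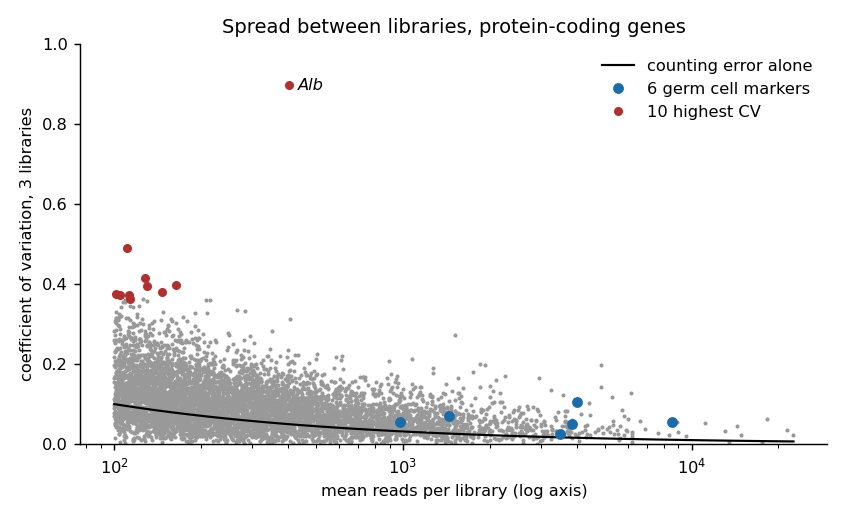
Coefficient of variation over the 3 control libraries against mean reads (log axis) for 6555 nuclear protein-coding genes, with the line that counting error alone would give. The 6 germ cell markers (blue) lie above the line, between 0.0264 for Mael and 0.105 for Tdrd9 where counting error alone gives 0.0108 to 0.0320, and Alb, at 0.898, stands apart from the other genes with high values (red).

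Among these 6555 genes the highest coefficient of variation was that of Alb, the gene of serum albumin, which the liver makes. It had 1, 674 and 534 reads and a coefficient of 0.898, where the next gene, Camta2, had 0.491. Other genes of liver secretion followed the same pattern. Serpina6, which carries glucocorticoids in plasma, had 10, 132 and 139 reads, Apoa1, the main protein of HDL, had 11, 44 and 54, and Hpx, which binds haem, had 0, 23 and 29. Fgb, a chain of fibrinogen, had 0, 41 and 21. A rule chosen after seeing these values asked for genes with at least 20 reads in both other libraries and a coding TPM at least 4 times lower in 1 library. It took 9 genes for library 1, of which Alb, Serpina6, Apoa1, Hpx, Fgb, Cp and Mug1 are liver genes, while 7 and 8 genes met it for libraries 2 and 3. Of these Bche, low in library 3, is also a plasma protein made by the liver.

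A list of 24 liver genes was drawn up after these values were seen and holds 6 of the genes just named, so that its total in library 1 is partly set by that choice. The 24 genes summed to a coding TPM of 227, 844 and 690.0, and the 18 others alone to 208, 306 and 259. Of these 18 genes 11 were lowest in library 1, as were 33.6% of all nuclear protein-coding genes with a mean of at least 10 reads. Not every liver gene was low in library 1. Afp, the foetal counterpart of albumin, had 124, 61 and 86 reads and was highest in library 1, and Apob had 118, 135 and 95. The 82 somatic markers summed to 798, 899 and 763 as given above. By list, the sum was lowest in library 1 for foetal Leydig, interstitial, erythroid and mesonephros genes. It was lowest in library 3 for Sertoli and endothelial genes, and in library 2 for peritubular and macrophage genes. Whether RNA from outside the gonocytes took part in these values was not tested. Without library 1 the biological coefficient of variation was 0.104.

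**Figure D5:**
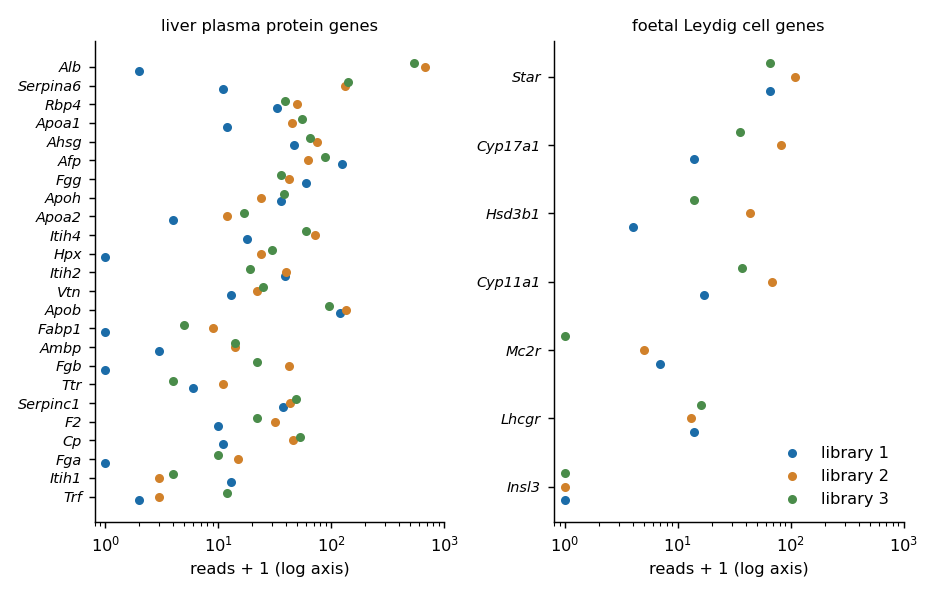
Reads plus 1 (log axis) of 24 liver genes and 7 foetal Leydig cell genes in the 3 control libraries, each library a point of its own colour. Alb has 1 read in library 1 and 674 and 534 in libraries 2 and 3, and Cyp17a1, Hsd3b1 and Cyp11a1 are highest in library 2.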

How the data were processed

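RNA-seq libraries of sorted E16.5 gonocytes were prepared by the authors from total RNA with RiboGone and a stranded low-input SMARTer kit. Per the submitters' processing notes and the methods, the authors used HISAT2 with GRCm38 and counted read pairs over Ensembl genes with HTSeq 0.11.1. The deposited counts are whole and not normalised, and the strand setting is not given in the sources used here. DESeq2 1.26.0, also named there, made no value used here. Rows that name no gene (unassigned, ambiguous, unaligned or multiply aligned reads) were left out, and genes hold the 34.8% to 35.7% that stay.

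Of 54838 genes 54809 were matched to GENCODE vM21 for symbol, biotype and length (union of exons). TPM, shares and lists were computed in Python 3.11.15 (pandas 2.3.3, numpy 2.4.6), exon overlaps with bedtools 2.31.1, and plots with matplotlib 3.10.9. Spread was estimated in R 4.3.3 with edgeR 4.0.16 (filterByExpr, TMM, estimateDisp) and tested on simulated data, and DESeq2 1.42.0 size factors were an alternative. A count of 0 was taken to allow 3 reads, for counting error only. Promoters come from RefSeq (GRCm38.p6), the first listed for a symbol.

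Named are the 6 markers, the 20 most abundant protein-coding and 10 noncoding genes, up to the 6 highest and 4 lowest of each list and family, the 10 genes with the highest and the 10 with the lowest coefficient of variation, and members a list's function turns on, which were named after their values were seen. Members and lists were chosen with earlier results of these data known. Comparisons of genotypes, repeat counts and small RNA were not used here.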

Additional observations from a re-analysis of the deposited data

How the results depend on the processing

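No paired analysis was possible because the results come from no test. Of the alternative values of the main counts and shares, 76 stayed within 1.5 times (counts) or 1 SD (shares) and 31 moved further. The 76 include every share with 1 library left out. With 3 libraries such a mean cannot move by 1 SD, so these values say nothing about stability. The numbers of genes on depend on the threshold and on Gm23935. From 8613 genes in all, 2446 were on at a TPM of at least 5, 16881 at a CPM of at least 1 and 18950 with Gm23935 left out before TPM (chosen after seeing the data); for 7743 protein-coding genes the numbers were 2250, 14109 and 13939, for 13 pluripotency genes 4, 22 and 22, and for 4 spermatid genes 1, 14 and 18. Meiotic genes on went from 31 to 14 at a TPM of at least 5. The piRNA genes were 24 in every alternative but a TPM of at least 5, which kept 21 and lost Exd1, Henmt1 and Pld6. Leaving out each library gave 8966 to 9404 genes and 7868 to 8165 protein-coding genes on.

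The protein-coding share of 71.5% became 79.5% without mitochondrially encoded genes, 6.59% as a share of TPM, 41.4% over all rows but unaligned and multiply aligned reads, and 82.0% without Gm23935. The share of the 100 leading genes, 37.2%, became 29.6% without mitochondrially encoded genes, 16.46% over protein-coding genes, 93.8% of TPM and 28.0% without Gm23935. The mitochondrial share of 11.5% became 6.65% over those rows, 3.38% of TPM and 13.2% without Gm23935. The somatic marker share of 0.0520% became 0.0588% without mitochondrially encoded genes, 0.00512% of TPM, 0.0467% without Ptch1, which had most reads, and 0.0597% without Gm23935. The biological coefficient of variation of 0.114 became 0.152 over genes with a total above 0 and 0.0900 over genes with a mean of at least 100 reads, and 0.104 to 0.117 with each library left out, lowest without library 1. With the longest transcript as length, 4 of the 6 markers moved by over 1 SD, Piwil4 from a TPM of 13.2 to 21.1. The shifts with Gm23935, with TPM shares and with the threshold follow from the construction of those scales, and the cause of the others was not tested.

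With 4893265 to 5561189 gene reads per library, a gene of 1000 bases at a coding TPM near 1 rests on about 1 read, so levels of genes called off are uncertain and 3 libraries limit every SD.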

Other observations

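Large gene families differed in how much of them was on, beside the 35.2% of all protein-coding genes. Of 98 nuclear genes of oxidative phosphorylation 81 were on, led by Uqcrb, Atp5mpl and Atp5b with mean coding TPM of 732, 701 and 658. Of 18 glycolysis genes 16 were on, from Pkm at a coding TPM of 618, 611 and 592 to Pfkp at 18.1, 15.2 and 17.7. Gapdh had 39.0, 35.8 and 41.9. Not on were Tpi1 at 9.08, 2.73 and 12.3 and Pfkl at 8.68, 9.21 and 4.91. Multiply aligned reads were not counted, and whether this lowered Gapdh or Tpi1 was not tested. Of 425 genes named as zinc-finger proteins 192 were on, with Zfp516 highest at a mean of 218 ± 3.90 (SD, n = 3). Of 69 clustered histone genes 30 were on, in libraries not selected for poly(A), with Hist1h4d at 859, 849 and 898 reads.

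Several families had few members on. Of 1135 olfactory receptors 3 were on, Olfr1350, Olfr1393 and Olfr149, and 429 had no read. None of 326 vomeronasal receptors and none of 39 Hox genes was on, although 16 and 13 of them had a coding TPM of at least 1 in every library. Of 110 keratin and keratin-associated genes 4 were on (Krt18, Krt27, Krt17 and Krt8) and 32 had a coding TPM of at least 1, and of 32 Rhox genes 4, Rhox10, Rhox5, Rhox1 and Rhox13. Of 64 defensins 2 were on, Defb36 with 29, 22 and 32 reads and Defb26 with 17, 18 and 18. Of 20 markers of unrelated lineages 2 were on, Afp and Myh6, a myosin of the heart, which had 549, 483 and 400 reads in libraries 1, 2 and 3.

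Of 19 immediate early and heat shock genes 5 were on, with a median of the mean coding TPM of 12.1 against 8.57 over all nuclear protein-coding genes. Those on were the constitutive chaperone gene Hspa8, Hsph1 at a coding TPM of 321, 277 and 260.4, Dnajb1 at 129, 123 and 151, Ddit3 at 47.1, 44.7 and 27.1, and Hspa1b. Of the early genes, none of which was on, Fos had 8, 20 and 33 reads, Fosb 54, 14 and 19, and Egr1 74, 48 and 45. The inducible Hspa1a had 0, 0 and 5 reads and its near-identical copy Hspa1b 77, 61 and 41.

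Single genes stood apart in 1 library without a shared theme that was listed. At least 4 times above both other libraries, and with at least 20 reads, were 7 genes in library 1, among them Rhox4g with 23, 1 and 2 reads, 10 genes in library 2, among them Zfp54 with 9, 45 and 10, and 4 genes in library 3, among them Ifitm3 with 6, 2 and 27. This rule was chosen after seeing the data.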
